A study of Mus musculus with 5 samples.

Results

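Fatty acid uptake and beta-oxidation is described here through 44 genes, all of which were listed by name among the 15116 genes of the deposited table. They were chosen by gene name and sorted by the step they serve: 9 in uptake and activation, 6 in the carnitine shuttle, 19 in the mitochondrial spiral, 6 in peroxisomal oxidation and 4 at the lipid droplet. RNA of mouse hearts was measured by bulk 3′-tag sequencing with molecular identifiers in 2 Immtfl/fl-Myh6-MCM hearts (knockout) and 3 Immt+/+-Myh6-Cre hearts (control). Immt encodes Mic60, the organizer of mitochondrial cristae junctions.

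In the knockout, both Immt alleles carry loxP sites and the Myh6 promoter, active in cardiomyocytes, drives the MerCreMer recombinase, which works only after tamoxifen. Tamoxifen was given to these mice at 6 weeks of age and hearts were taken 10 weeks later. The control hearts had wild-type Immt and the constitutive Myh6-Cre transgene. They are labelled as injected with tamoxifen too, with no time given; their age is stated to match that of the knockout. All 5 hearts therefore carried a cardiomyocyte recombinase and are labelled as exposed to tamoxifen, but the kind of recombinase differed between the groups, so the effects of the transgene and of the Immt alleles cannot be told apart. According to the methods the Myh6-Cre line is X-linked and only males of it were used in the knockout work, whereas both sexes of the inducible line were used. The Y-linked genes Ddx3y, Kdm5d, Eif2s3y and Uty were read in both groups, and their summed normalized CPM, the count scaled to a common library size, was 70.9 and 69.6. The X-linked Xist was looked for beside them and was not among the 15116 listed genes. Each library is a separately titled sample, and p-values measure the spread between these samples only.

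The heart draws most of its energy from fatty acids. Lipoprotein lipase and the droplet lipases free them, Cd36 and transport proteins bring them in, binding proteins carry them through the cytosol, and acyl-CoA synthetases activate them. Carnitine palmitoyltransferases then move the acyl chain into the mitochondrion, where each turn of the spiral (dehydrogenase, hydratase, hydroxyacyl dehydrogenase, thiolase) shortens it by an acetyl unit and passes electrons to the respiratory chain. Peroxisomes shorten chains that mitochondria handle poorly.

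The deposited table holds a mean and an SD per group. Single libraries were worked back from them for 12532 genes (82.9%), of which 24 were members. For most other members the 2 knockout values follow from mean and SD, and the control is given as mean ± SD with the widest range that 3 values with this SD can span. The effective library sizes were 12.1 to 13.6 M reads in the control and 14.1 to 15.2 M in the knockout. The libraries are lettered by size within their group, since their replicate numbers are not known. Immt itself read 249, 263 and 250 CPM in control libraries a, b and c and 15.98 and 19.8 CPM in the knockout, a 14.2-fold lower mean. Esr1, whose ligand-binding part belongs to MerCreMer, rose from 0.73 to 1.07 CPM in control hearts to 439 and 478 CPM in knockout hearts. Both genes fell on the side their labels give.

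Of the 44 genes, 7 were higher and 8 were lower in the knockout at an adjusted p below 0.05, and 29 were not called. This amounts to 15.9% higher and 18.2% lower, beside 13.3% higher and 12.9% lower among all 15116 genes (26.2% called in either direction). Calls were more frequent in well expressed genes. Among the 34 members with a mean of at least 20 CPM, 20.6% were higher and 17.6% were lower, beside 26.1% and 14.9% of the 3997 listed genes at that level, a comparison chosen after the values were seen. The share of members called was thus not far from the background in either direction. The median log2 difference was -0.04 over the members and -0.02 over all genes, and the median of its absolute size was 0.18 over the members and 0.25 over all genes. Only Acsl3 passed both the test and a log2 difference of 1 in size (-0.99 with a pseudocount of 2 CPM), a pair of conditions that 2.08% of all genes met upward and 3.84% met downward.

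In every called gene the groups did not overlap: Fabp3, Plin5, Pnpla2, Cpt1b, Hsd17b4, Cd36 and Eci1 lay above the control range, and Acsl3, Acsl4, Acaa2, Acad11, Cpt2, Acsl1, Acadm and Hadh lay below it. In all, 24 of the 44 genes had groups that did not overlap, and by the same rule 52.6% of all listed genes did. These shares are not fully alike. Control library values were known for 24 members and for 12794 of the 15116 listed genes. Elsewhere the wider range that the SD allows stood in for them.

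**Figure D1:**
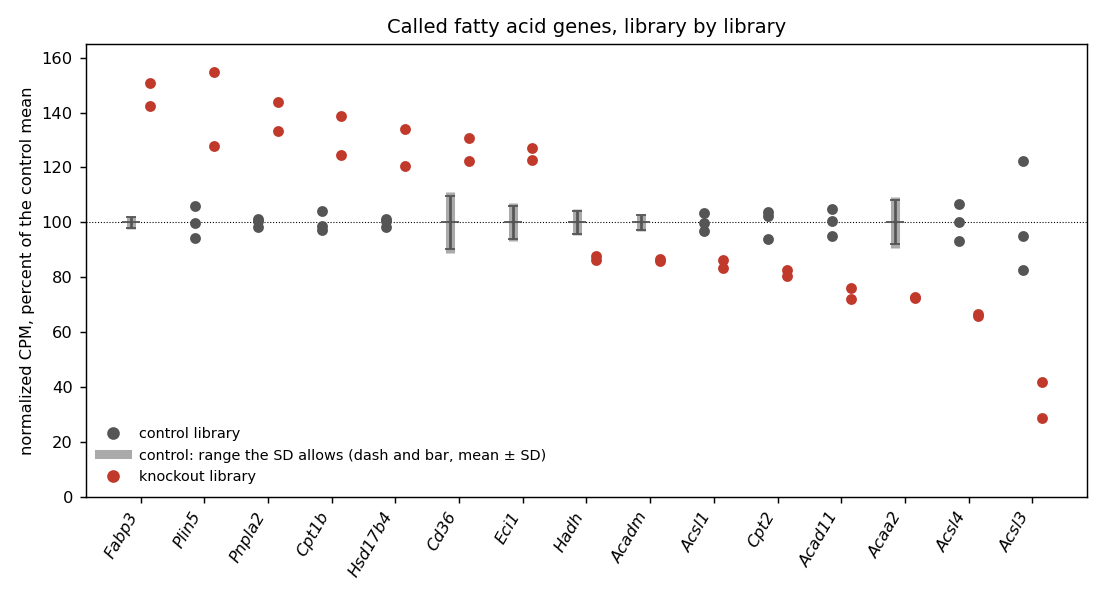
Normalized CPM of the 15 called fatty acid genes in percent of the control mean; grey points are control libraries, grey bars the range the control SD allows where single values are not known (dash and bar, mean ± SD), red points the 2 knockout libraries. The 7 higher genes lie above and the 8 lower genes below all control values, and Acsl3 falls farthest, with knockout values of 1.91 and 2.77 CPM.

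The table was scaled by the authors with normalization factors, and the control column sums to 1036321 CPM while that of the knockout sums to 947955 CPM. Transcripts of mitochondrial DNA took 36.7% of the first sum and 32.2% of the second. Scaling to library totals instead moved the median of all genes up by 0.11 on the log2 scale and left 13 members higher and 4 lower, beside 20.3% higher and 9.39% lower of all genes. The split between higher and lower members thus depended on the scaling, and 6 genes that were not called turned from a negative to a positive difference.

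In uptake and activation, 2 of 9 genes were higher and 3 were lower. Fabp3, the heart-type fatty acid binding protein, was the most abundant member in both groups. It read 3875 ± 76.2 CPM in the control (SD, n = 3; range allowed 3787 to 3963) and 5512 and 5838 CPM in the knockout. Both knockout hearts lay far above the control, with a log2 difference of 0.55 ± 0.05 (SE) and an adjusted p of 0.000202. Cd36, the main fatty acid translocase of the sarcolemma, read 598 ± 57.3 CPM in the control and 732 and 782 CPM in the knockout, a 1.27-fold higher mean (adjusted p = 0.0166).

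Of the 4 activating enzymes, 3 were lower. Acsl1, the predominant long-chain acyl-CoA synthetase of the heart, read 225, 239 and 231 CPM in control libraries a, b and c and 193 and 200 CPM in the knockout. The log2 difference was -0.24 ± 0.06 (adjusted p = 0.0222), and the call was lost under scaling to library totals (-0.11). Acsl3, a synthetase of the endoplasmic reticulum and nascent lipid droplets, read 6.31, 8.11 and 5.49 CPM in the control and 1.91 and 2.77 CPM in the knockout. These are 66.5 to 110.5 reads against 29 and 39, and the mean was 2.84-fold lower (log2 difference -1.33 ± 0.21, adjusted p = 0.0019). Acsl4, which prefers arachidonate, read 9.31, 9.91 and 8.67 CPM in the control and 6.11 and 6.18 CPM in the knockout, a 1.51-fold lower mean (adjusted p = 0.0104).

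The 3 called synthetases, like all 15 called members and 52.6% of all listed genes, had groups without overlap, here with both knockout hearts lower. The fourth, Acsl5, read 4.04 to 5.86 CPM in the control and 4.28 and 4.48 CPM in the knockout, within the control range. The other members of this step were not called. Lpl, the lipase that frees fatty acids from lipoproteins, read 2418 ± 149 CPM in the control and 2237 and 2333 CPM in the knockout (95% interval of the log2 difference -0.23 to 0.07). Slc27a1, a fatty acid transport protein, had an interval of -0.45 to 0.19, and Fabp5, the epidermal-type binding protein, one of -0.22 to 0.22. Control library c stood apart in Slc27a1, at 80.6 CPM beside 60.2 and 58.6 CPM.

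The carnitine shuttle had 1 gene higher and 1 lower of 6, and 2 higher (Cpt1b and Mlycd) and 0 lower under scaling to library totals. Cpt1b, the muscle isoform of the outer-membrane transferase that commits acyl chains to oxidation, read 145, 135 and 137 CPM in the control and 173 and 193 CPM in the knockout (log2 difference 0.40 ± 0.07, adjusted p = 0.00441). Cpt2, the inner-membrane transferase that completes the transfer, read 92.2, 90.8 and 83.4 CPM in the control and 71.3 and 73.3 CPM in the knockout (log2 difference -0.29 ± 0.07, adjusted p = 0.0188). Under scaling to library totals Cpt2 was no longer called (-0.17). The ratio of these partner enzymes within a library is free of the scaling between libraries, and shows how far they moved apart but not in which direction each went. Cpt1b to Cpt2 was 1.49 to 1.64 in the control hearts and 2.43 and 2.63 in the knockout hearts.

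Cpt1a, the liver-type isoform, read 13.4, 12.4 and 10.7 CPM in the control and 11.5 and 13.2 CPM in the knockout, with overlapping groups and an interval of -0.28 to 0.31. The Cpt1b to Cpt1a ratio was 10.8 to 12.8 in the control and 14.7 and 15.1 in the knockout. Malonyl-CoA, which inhibits the outer transferase, is made by Acacb and removed by Mlycd. Acacb overlapped between the groups (49.7 to 59.5 CPM against 48.4 and 53.8 CPM). Mlycd read 36.3, 34.9 and 26.9 CPM in the control and 41.0 and 45.3 CPM in the knockout, without overlap, and missed the threshold at an adjusted p of 0.0513. Mlycd passed under both other scalings and in the fit on all single libraries. It did not pass without the trend (adjusted p = 0.123), with either other pseudocount or with the 5 CPM minimum. On single libraries it missed without control library b (adjusted p = 0.0555) and passed without control library a (0.0433) or c (0.0267). It was not called there without knockout library a (log2 difference 0.33) or without knockout library b (0.48). With the farthest control value its SD allows left out, it missed too (adjusted p = 0.106). Crat, which buffers acetyl units as acetylcarnitine, read 122 to 123 CPM against 127 and 128 CPM, a narrow gap without overlap, and was not called.

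In the mitochondrial spiral, 1 of 19 genes was higher and 4 were lower, whereas scaling to library totals gave 5 higher and 2 lower. Acaa2, the thiolase that ends each turn for shorter chains, had the largest difference of the step. It read 265 ± 21.1 CPM in the control (range allowed 240 to 289) and 191.9 and 192.6 CPM in the knockout, a 1.38-fold lower mean (log2 difference -0.46 ± 0.08, adjusted p = 0.00253). Acad11, an acyl-CoA dehydrogenase of long chains that also occurs in peroxisomes, read 34.1, 30.9 and 32.7 CPM in the control and 23.4 and 24.7 CPM in the knockout (adjusted p = 0.00774). Acadm, the medium-chain dehydrogenase, read 761 ± 20.1 CPM in the control and 653 and 659 CPM in the knockout (adjusted p = 0.0203). Hadh, the hydroxyacyl-CoA dehydrogenase of medium and short chains, read 418 ± 17.2 CPM in the control and 361 and 367 CPM in the knockout (adjusted p = 0.0379).

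These lower values were small in size, with means of 0.73 to 0.87 of the control, and the 2 knockout hearts gave similar values. Under scaling to library totals Acadm (-0.08) and Hadh (-0.07) were no longer called. Hadh was also not called with totals that leave out the mitochondrial genome (-0.17). Without the trend neither of them was called. Eci1, the isomerase that lets unsaturated chains pass through the spiral, was the called gene that rose, at 180 ± 10.7 CPM in the control and 220 and 228 CPM in the knockout (log2 difference 0.32 ± 0.07, adjusted p = 0.0100).

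Some enzymes of long chains, Acadvl, Acadl, Hadha and Hadhb, had positive differences. None was called in the main scaling, and Acadvl (0.32), Acadl (0.29) and Hadha (0.24) were called higher under library totals. Acad11, also a dehydrogenase of long chains, went the other way. It was called lower in the main scaling (-0.43) and under library totals (-0.30). Acadvl, the very-long-chain dehydrogenase, read 252 ± 17.7 CPM in the control and 280 and 295 CPM in the knockout (log2 difference 0.19, interval 0.02 to 0.36, adjusted p = 0.093). Acadl, the long-chain dehydrogenase, read 523 ± 17.8 CPM and 585 and 587 CPM (0.17, interval 0.04 to 0.29, adjusted p = 0.0632). Hadha and Hadhb, the subunits of the trifunctional protein that runs the last reactions on long chains, had differences of 0.11 and 0.07.

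On the medium and short chain side, Echs1, the enoyl-CoA hydratase, and Acads, the short-chain dehydrogenase, had differences of -0.18 and -0.12 and were not called either. Sorting by chain length was done after the values were seen and was given no test. A change of scaling moves all these values together.

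Electron transfer from the dehydrogenases to the respiratory chain runs through Etfa, Etfb and Etfdh. Etfa read 819 ± 34.1 CPM in the control and 799 and 815 CPM in the knockout, and Etfb 312 ± 22.3 CPM and 296 and 317 CPM. Their intervals were -0.15 to 0.11 and -0.20 to 0.14, and the sign turned positive under both other scalings (0.11 and 0.10 under library totals). Etfdh read 149, 130 and 143 CPM in the control and 125 and 132 CPM in the knockout, with overlap. The auxiliary enzymes of unsaturated chains, Decr1, Ech1 and Eci2, had differences of 0.08, 0.12 and -0.13 and were not called. Under library totals Decr1 (0.21) was called higher. Acad10 and Acad12 overlapped, with differences of -0.10 and -0.05, and Acad10 rests on 12.5 to 23 reads per library.

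**Figure D2:**
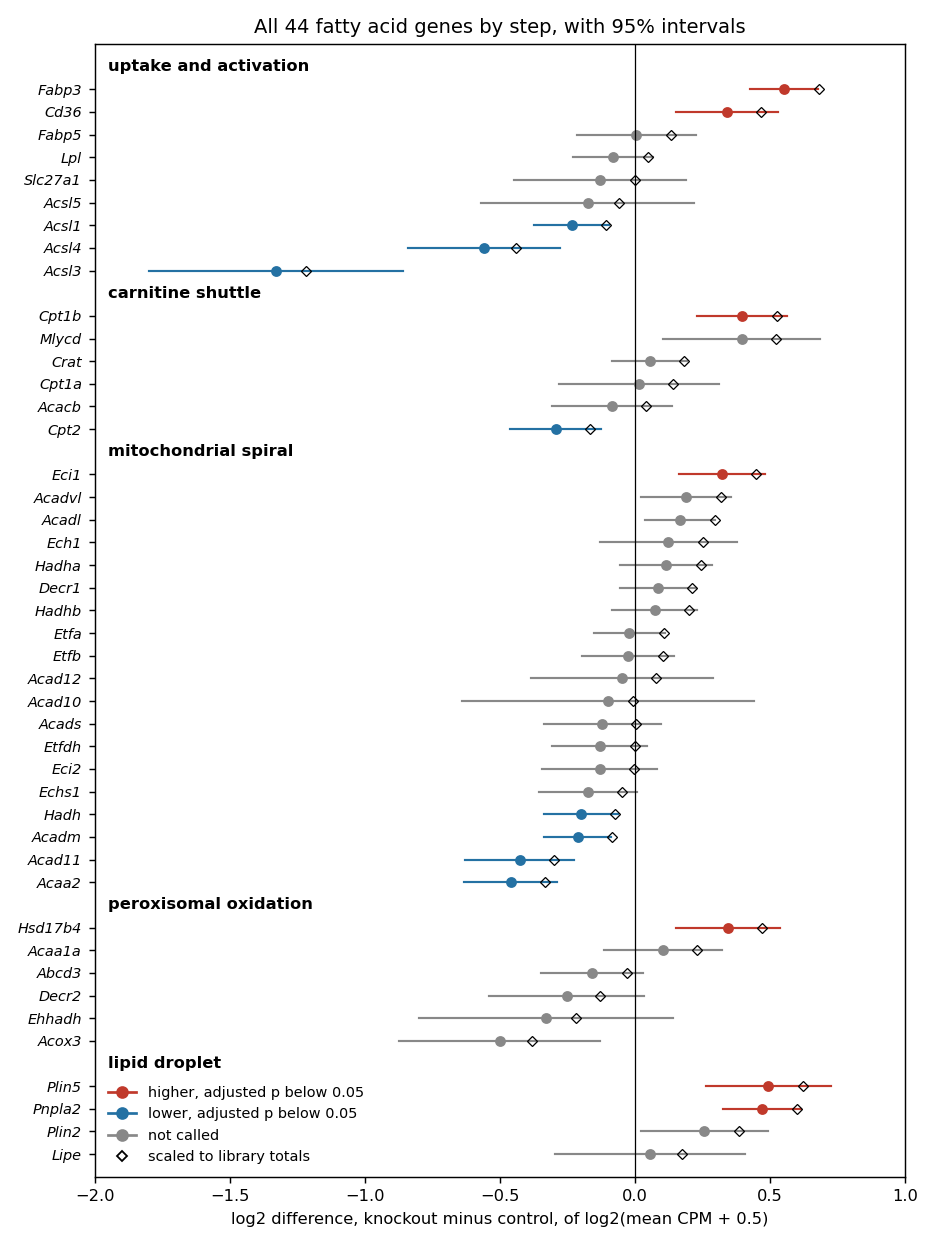
Log2 difference between knockout and control of log2(mean CPM + 0.5) for the 44 genes by step, with 95% intervals; red, higher, blue, lower, grey, not called, and open diamonds, the value when scaled to library totals. The 4 lipid droplet genes lie to the right of 0 and the 4 synthetases to the left of it, and the diamonds sit to the right of every point, which brings Acads, Acad12, Etfa, Etfb, Lpl and Acacb across 0.

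Peroxisomal oxidation had 1 higher gene of 6. Hsd17b4, the bifunctional enzyme of branched and very long chains, read 31.8, 32.7 and 32.5 CPM in the control and 38.9 and 43.3 CPM in the knockout (log2 difference 0.34 ± 0.08, adjusted p = 0.0171). The control hearts were nearly alike and both knockout hearts lay above them. Acox3, an acyl-CoA oxidase of branched chains, had the largest difference of the step. It read 9.14 ± 0.71 CPM in the control and 5.19 and 7.43 CPM in the knockout, without overlap, and missed the threshold (log2 difference -0.50, interval -0.87 to -0.13, adjusted p = 0.0531).

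Ehhadh, the other bifunctional enzyme, read 4.25, 3.45 and 2.64 CPM in the control and 2.37 and 2.91 CPM in the knockout, with overlap. Abcd3, the importer of acyl-CoA into peroxisomes, Decr2, a reductase of unsaturated chains, and Acaa1a, the peroxisomal thiolase, had differences of -0.16, -0.25 and 0.10 and were not called.

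At the lipid droplet, all 4 genes had positive differences and 2 of them were called. Pnpla2, the adipose triglyceride lipase that opens triglyceride breakdown, read 164, 168 and 168 CPM in the control and 222 and 239.8 CPM in the knockout (log2 difference 0.47 ± 0.06, adjusted p = 0.000914). Plin5, the perilipin that ties droplets to mitochondria in oxidative tissue, read 41.4, 39.1 and 43.99 CPM in the control and 53.0 and 64.2 CPM in the knockout (log2 difference 0.49 ± 0.10, adjusted p = 0.00748). Both genes stood clear of the control in each knockout heart, as all called members did, though Plin5 varied more between them. Plin2, the ubiquitous perilipin, read 45.6, 38.8 and 38.0 CPM in the control and 46.3 and 51.3 CPM in the knockout and was not called (adjusted p = 0.104).

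Lipe, the hormone-sensitive lipase that acts after Pnpla2, read 5.35 to 5.45 CPM in the control and 4.83 and 6.45 CPM in the knockout, on both sides of the control. The ratio of Pnpla2 to Lipe was 30.6 to 31.0 in the control hearts and 37.2 and 45.9 in the knockout hearts. Plin5 to Plin2 was 0.91 to 1.16 against 1.15 and 1.25, so the groups overlapped. Acsl1 to Acsl3 was 29.5 to 42.1 in the control and 69.7 and 105 in the knockout. The 5 ratios were picked after the values were seen and are given with no test.

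**Figure D3:**
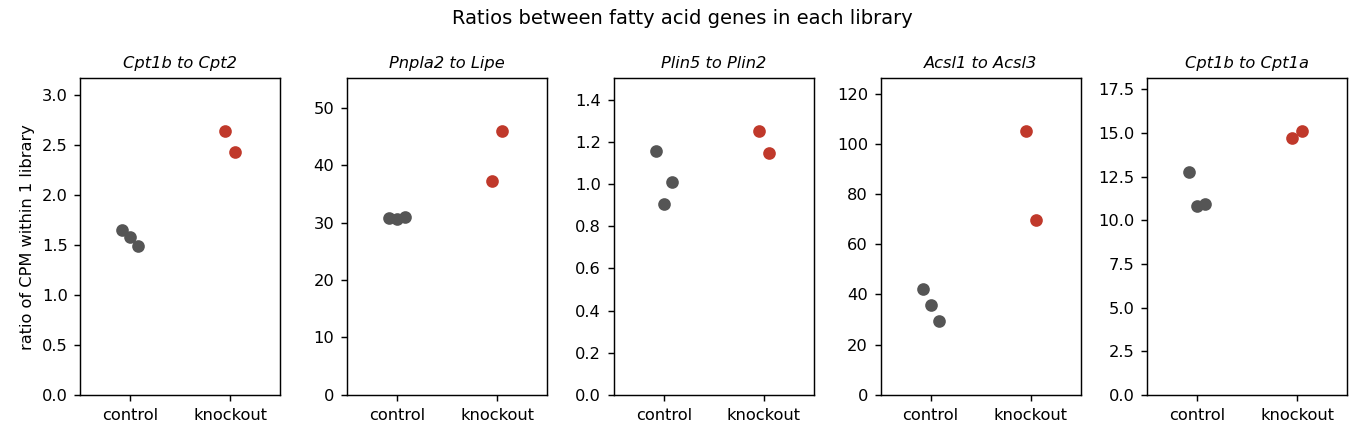
Ratio of the CPM of 2 fatty acid genes within each library, for the 3 control libraries (grey) and the 2 knockout libraries (red); each panel has its own axis from 0. The groups are apart for Cpt1b to Cpt2, Pnpla2 to Lipe, Acsl1 to Acsl3 and Cpt1b to Cpt1a, and overlap for Plin5 to Plin2.

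Of the 15 calls, 4 held in every alternative run on them: Fabp3, Pnpla2, Acsl3 and Acaa2. The 9 called genes with values for all 5 libraries were called in a fit on those libraries too. Without knockout library a, Acad11 (log2 difference -0.39), Acsl4 (-0.57), Cpt2 (-0.31), Hsd17b4 (0.27) and Plin5 (0.35) were no longer called. Without knockout library b this held for Acad11 (-0.46), Acsl1 (-0.21), Acsl4 (-0.55), Cpt2 (-0.27) and Hsd17b4 (0.42), without control library a for Cpt2 (-0.27) and Hsd17b4 (0.33), and without control library b for Cpt2 (-0.28). Leaving out the higher or the lower knockout value also ended the calls of Cd36 (0.29 and 0.39), Eci1 (0.29 and 0.35), Acadm (-0.22 and -0.21) and Hadh (-0.21 and -0.19), and leaving out the higher one that of Cpt1b (0.31). All 15 kept their sign in the alternatives run.

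Together the members made up 1.34% of the control sum and 1.66% of the knockout sum. Without transcripts of mitochondrial DNA in those sums, the shares were 2.11% and 2.44%. In normalized CPM the members summed to 13846 in the control and 15697 in the knockout. Fabp3 alone was 28.0% of the members' CPM in the control and 36.2% in the knockout, and the sum of the remaining members was 9971 and 10022 CPM. Replicate spread was small at the median, with a coefficient of variation of 6.82% in the control and 4.74% in the knockout. The largest were 23.4% (Ehhadh, control) and 36.8% (Acad10, knockout). Each knockout value rests on 2 libraries only.

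Markers of other cells are given beside these values because the tissue was a whole heart, and fewer cells of a type cannot be told apart from less RNA per cell. The hearts carried the cardiomyocyte markers Myh6, Tnnt2, Tnni3, Actc1, Myl2 and Ryr2, of which 4 of 6 were lower in the knockout and none higher. Their sum was 26281 CPM in the control (at most 23588 to 28975 across libraries) and 22057 CPM in the knockout (at most 21238 to 22876). Endothelial markers, whose cells also express Cd36, were not called in 5 of 5 and summed to 200 and 212 CPM. Fibroblast markers had 1 of 5 lower (505 and 441 CPM), macrophage and leukocyte markers 1 of 5 lower (70.9 and 56.3 CPM), and smooth muscle and pericyte markers none of 5 called (401 and 320 CPM). None of the adipocyte markers Adipoq, Plin1, Cidec, Lep, Cfd and Retn was among the listed genes. No marker list that was measured had its markers at 0. Haemoglobin genes varied widely between control libraries, with Hbb-bs at 2012 ± 1499 CPM there and 1111 ± 262 CPM in the knockout. The part of the cell makeup in the members' differences was not tested.

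Of a second list of 51 genes from the same steps, 45 were measured, 5 were higher, 11 were lower and 29 were not called. This was 11.1% higher and 24.4% lower, beside 13.3% and 12.9% of all genes, and the split became 8 higher and 7 lower under scaling to library totals. The list also holds genes described below by roles outside fatty acid oxidation. Among them Ivd and Got2 count as lower and Hsd17b10 as higher. In uptake and activation, 3 of 11 measured were lower and none was higher. Dbi, the acyl-CoA binding protein, read 313 ± 24.2 CPM in the control and 218 and 228 CPM in the knockout (adjusted p = 0.00185). Slc27a4, a fatty acid transport protein with synthetase activity, read 7.85 to 8.83 CPM and 5.54 and 6.31 CPM (adjusted p = 0.0334), and Got2, the mitochondrial aspartate aminotransferase, had a log2 difference of -0.21 (adjusted p = 0.0474). All 3 were lower in both knockout hearts than the control range, and 52.6% of all listed genes had groups without overlap.

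In the carnitine list, 1 of 5 was higher and 1 lower. Acaca, the cytosolic acetyl-CoA carboxylase, read 2.46, 2.28 and 1.49 CPM in the control and 4.37 and 4.58 CPM in the knockout, a 2.16-fold higher mean (adjusted p = 0.00841). Cpt1c, the brain-type isoform, was lower, from a mean of 1.09 to 0.52 CPM, with knockout values of 0.39 and 0.64 CPM (adjusted p = 0.0491). That call rests on few reads, since 1 read was 0.0658 to 0.0825 CPM, and its level was below the 5 CPM minimum. Slc25a20, the carnitine-acylcarnitine carrier between Cpt1b and Cpt2, had a difference of -0.27 and missed the threshold (adjusted p = 0.0715).

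In the mitochondrial list, 1 of 8 was higher and 2 were lower. Ivd, the isovaleryl-CoA dehydrogenase of leucine breakdown, read 164, 148 and 151 CPM in the control and 88.7 and 91.7 CPM in the knockout (log2 difference -0.77 ± 0.07, adjusted p = 0.000132). Etfbkmt, which methylates the electron transfer flavoprotein, was lower (-0.75 ± 0.18, adjusted p = 0.0169). Hsd17b10, a short-chain dehydrogenase of isoleucine breakdown and of mitochondrial tRNA processing, was higher (0.36 ± 0.07, adjusted p = 0.00516).

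In the peroxisomal list, 1 of 7 was higher and 1 was lower. Acox2, an oxidase of branched chains and bile acid precursors, read 0.51, 0.44 and 0.50 CPM in the control and 5.53 and 5.83 CPM in the knockout, an 11.8-fold higher mean (adjusted p = 2.73e-05). Scp2, the sterol carrier protein with thiolase activity, was lower, at 0.78 of the control mean (adjusted p = 0.00707).

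In the droplet list, 2 of 14 were higher and 4 lower. G0s2, an inhibitor of the Pnpla2 lipase, read 102, 95.2 and 89.5 CPM in the control and 117 and 151 CPM in the knockout (log2 difference 0.48 ± 0.11, adjusted p = 0.0124), while Abhd5, the co-activator of the same lipase, was 1.24-fold and not called (adjusted p = 0.130). Gpat3, an acyltransferase that starts triglyceride synthesis, was 1.87-fold higher (adjusted p = 0.000712). Fitm1, which packages triglyceride into droplets in muscle, read 114 ± 18.4 CPM in the control and 45.8 and 56.0 CPM in the knockout, a 2.24-fold lower mean (adjusted p = 0.000471). Its paralogue Fitm2 was 1.47-fold lower (adjusted p = 0.00068) and Plin3, a perilipin of small droplets, 1.71-fold lower (adjusted p = 0.000235). Cidea, a droplet fusion protein outside the rule for named genes, was the other lower gene (adjusted p = 0.0298). Droplet genes of this list thus moved in both directions.

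**Figure D4:**
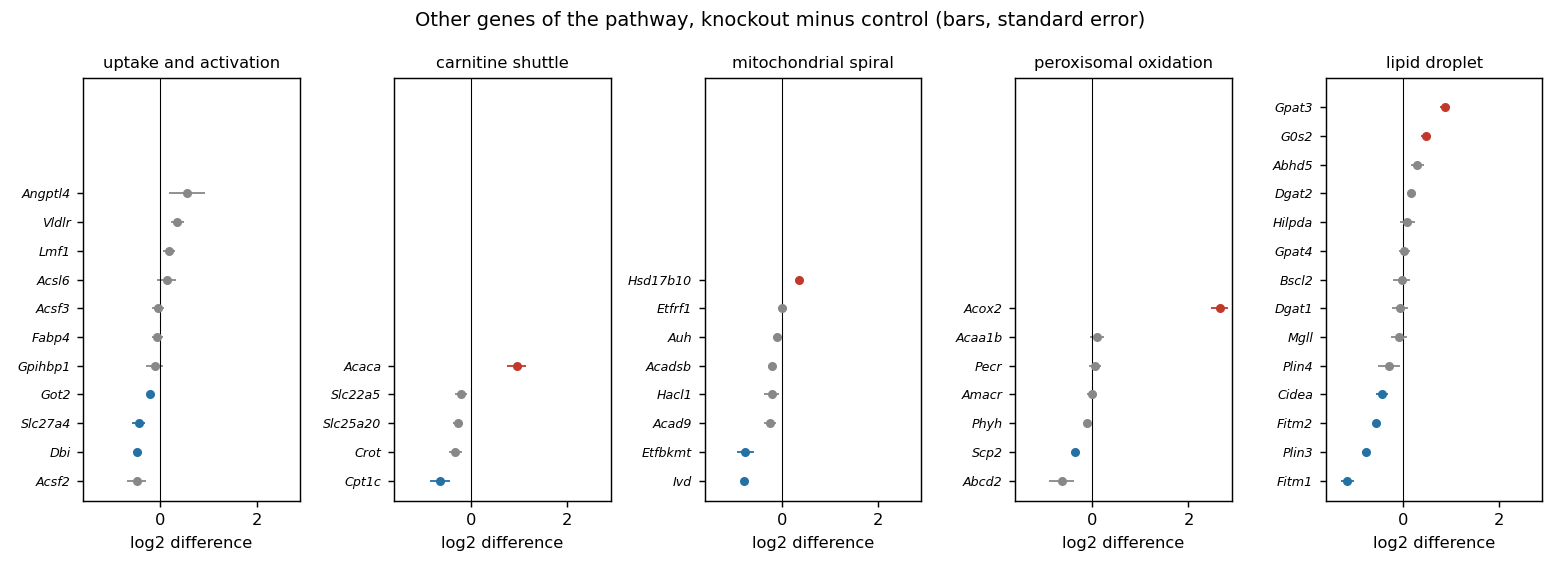
Log2 difference between knockout and control for the 45 measured genes of the second list by step, with bars for the standard error; red, higher, blue, lower, grey, not called. Acox2 lies farthest to the right at 2.65 and Fitm1 farthest to the left at -1.15.

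RefSeq promoter windows (250 bases before to 50 after the start, build GRCm38.p6) were found for 37 of the 44 genes and searched on both strands. Where a gene had several windows, as 5 members did, only the first listed was searched. Which start the heart uses was not tested. They were searched because several members are known targets of the nuclear receptors PPARα and ERR. AGGTCA repeated with 1 base between, the element of PPAR with RXR, was in none of the 37 and in 0.0444% of all 27025 windows. AAGGTCA, the extended half-site, was in Acadm and Acacb, 5.41% of the members beside 4.66% of all windows. TGATGCAA was in Echs1 alone, 2.703% beside 0.929%. The plain half-site TGACCT, which overlaps the first 2 motifs, was in 8 members, 21.6% beside 16.04%. The windows of the called members that hold the half-site are shown because they include a gene that fell, Acadm, beside genes that rose, Cd36 and Plin5, and the capitals mark the half-site, in Acadm in its extended form. They are read 5′ to 3′ along the gene, all 3 from the minus strand, at chr3:153944594-153944893 (Acadm), chr5:17835847-17836146 (Cd36) and chr17:56117499-56117798 (Plin5). The matches begin 249, 228 and 170 bases before the start.
Acadm: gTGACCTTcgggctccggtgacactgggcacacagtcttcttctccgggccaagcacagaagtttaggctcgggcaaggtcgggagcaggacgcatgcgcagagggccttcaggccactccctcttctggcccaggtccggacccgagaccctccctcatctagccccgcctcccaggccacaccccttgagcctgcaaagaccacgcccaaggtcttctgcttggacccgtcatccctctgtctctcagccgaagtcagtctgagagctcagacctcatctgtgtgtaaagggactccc
Cd36: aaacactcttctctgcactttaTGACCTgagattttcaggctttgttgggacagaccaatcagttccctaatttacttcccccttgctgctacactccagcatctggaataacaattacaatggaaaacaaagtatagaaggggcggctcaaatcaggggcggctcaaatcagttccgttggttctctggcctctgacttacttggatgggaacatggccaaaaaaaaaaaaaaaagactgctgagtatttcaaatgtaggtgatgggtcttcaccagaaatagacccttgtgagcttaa
Plin5: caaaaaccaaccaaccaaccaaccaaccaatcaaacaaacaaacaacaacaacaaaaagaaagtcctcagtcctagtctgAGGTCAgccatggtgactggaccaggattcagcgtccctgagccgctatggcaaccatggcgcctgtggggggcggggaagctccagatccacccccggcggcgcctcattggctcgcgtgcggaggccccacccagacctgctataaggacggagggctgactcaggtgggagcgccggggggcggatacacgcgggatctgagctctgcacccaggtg
The half-site thus stood in genes of both directions. The windows of the members had a median GC content of 61.3%, beside 52.7% of all windows.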

How the data were processed

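Heart RNA of 3 control and 2 knockout mice was sequenced in bulk as oligo-dT 3′ tags with molecular identifiers. The submitters' processing notes name GRCm39, STAR 2.7.11, SAMtools 1.22.1, featureCounts, Subread 2.1.1 and edgeR 4.0.16, without roles. The values used are the signal columns the authors deposited: per gene and group a mean and an SD of normalized CPM over libraries. The table also holds the authors' own comparison (log2 fold change, F statistic, p-value and adjusted p), which was not used, and a second table was not used either.

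Genes were compared with a limma 3.58.1 moderated test in R 4.3.3, two-sided, on the log2 of the mean plus 0.5 CPM and with a trend of variance on level. The residual variance came from both deposited SDs by the delta method, with 3 degrees of freedom. P-values were adjusted (Benjamini-Hochberg) over all 15116 genes and calls needed an adjusted p under 0.05. A log2 difference with a pseudocount understates the change of low genes.

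Effective library sizes and read numbers of single libraries were worked back by finding the reads, in steps of 0.25, whose CPM give the deposited mean and SD. The method was tested on simulated whole reads, so that test did not cover reads split between genes. Control values came back for 24 of the 44 genes. Fractional reads show that reads shared by several genes were split: 23 members held such reads, 15 held none and 6 could not be read. The values of those 23 are uncertain to that extent. They include the called genes Cd36, Acsl1, Acsl3, Cpt1b, Acadm, Hadh, Acaa2 and Acad11. At these depths 1 read was 0.0658 to 0.0825 CPM.

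Members, steps and lists were chosen with earlier results of these data known. All 44 members are named, called ones with full values; of the second list up to 3 called genes per direction and step by smallest p are named. Some genes of that list are not reported here. Alternatives were 2 other scalings, pseudocounts of 0.1 and 2, a minimum mean of 5 CPM, no trend, and leaving out values or libraries; limma and voom on single libraries were added after the data were seen.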

Additional observations from a re-analysis of the deposited data

How the results depend on the processing

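Of the 15 calls, Fabp3, Pnpla2, Acsl3 and Acaa2 held in every alternative run on them (Acsl3 was below the 5 CPM minimum). No paired analysis was possible because the deposited means and SDs carry no replicate numbers and the libraries worked back from them are not numbered. Scaling to library totals gave 13 members higher and 4 lower (7 and 8 in the main test), 3067 of all genes higher (2014), and 8 higher and 7 lower in the second list (5 and 11). Without the trend, 4 members were higher and 4 lower, with 3, 1, 2 and 0 calls in uptake, shuttle, spiral and peroxisome (5, 2, 5 and 1). A minimum of 5 CPM left 1277 genes lower (1944) and 3 of the second list higher, since fewer genes were tested. Leaving out the higher or the lower knockout value of each gene, or the farthest control value its SD allows, with a lone knockout library assumed to vary like the controls, gave 844 to 1515 genes higher, 680 to 1328 lower, 2 to 7 members higher and 2 to 4 lower. By step this was 2 to 4 calls in uptake, 0 to 1 in the shuttle, 1 to 3 in the spiral, 0 to 1 in the peroxisome and 1 to 2 at the droplet; the second list had 2 to 5 higher and 5 to 8 lower. The fit on single libraries called 2 to 5 members higher and 1 to 5 lower with 1 library left out, beside 5 and 5 with all of them.

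Signs turned only in genes that were not called. Under library totals Lpl (0.047), Acacb (0.042), Acads (0.0048), Acad12 (0.076), Etfa (0.107) and Etfb (0.101) became positive, and without the mitochondrial genome Etfa (0.0089) and Etfb (0.0031). With values left out the log2 differences ranged from -0.079 to 0.014 (Fabp5), from -0.21 to 0.032 (Slc27a1), from -0.083 to 0.11 (Cpt1a), from -0.39 to 0.14 (Acad10), from -0.26 to 0.134 (Acad12), from -0.035 to 0.014 (Etfa), from -0.077 to 0.034 (Etfb) and from -0.15 to 0.23 (Lipe). On single libraries they were 0.029 (Slc27a1) and -0.068 (Cpt1a) without control c, -0.077 (Cpt1a) and -0.15 (Lipe) without knockout a, 0.0018 (Acad10) without control b, 0.027 (Acad12) without control a, and 0.16 (Acad10) and 0.14 (Acad12) without knockout b. The cause was not tested.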
